A study of Mus musculus with 16 samples.

Results

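The chromatin around 7 cholesterol efflux targets of the liver X receptor (LXR) was described in mouse bone marrow-derived macrophages: Abca1, Abcg1, Apoe, Pltp, Lpl, Mylip and Smpdl3a. Overlapping ATAC-seq peaks from 4 lists were merged into 37648 regions over the genome, and the 83 regions whose midpoint lay no more than 100 kb from the start (TSS) of one of these genes were taken. ATAC-seq marks open DNA by the insertion of sequencing adaptors with the Tn5 transposase. Each list was called on 4 libraries of 50000 cells together, so that 16 libraries gave 4 lists, from which the authors had removed peaks outside macrophage enhancers marked by H3K27ac or H3K4me2. Cells grown from the marrow of young adult female C57BL/6J mice were treated on day 8 of culture for 3 h with DMSO (Veh) or with 500 nM T0901317, a synthetic agonist of LXR (T0), and the groups named LPS and T0-LPS then received lipopolysaccharide, a bacterial ligand of the receptor TLR4, at 10 ng/mL for another 2 h. LPS went into the medium that already held the agonist or DMSO. Groups with LPS had therefore also been cultured, and exposed to agonist or DMSO, for 2 h longer than those without it. No gene was deleted in any group.

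LXR pairs with the retinoid X receptor RXR on DNA and is switched on by oxidised forms of cholesterol. In macrophages it raises the genes that carry cholesterol out of the cell. ABCA1 and ABCG1 are membrane transporters that hand cholesterol to apolipoprotein A-I and to high-density lipoprotein. APOE is a lipoprotein component that macrophages secrete, PLTP moves phospholipids between lipoproteins and LPL hydrolyses their triglycerides. MYLIP, also called IDOL, is a ubiquitin ligase and SMPDL3A a secreted phosphodiesterase, both known LXR targets. The receptor pair prefers a DR4 element, a direct repeat of the 6-base half-site AGGTCA with 4 bases between the copies.

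A score percentile was used for every peak, that is, its place from 0 to 100 in the ranking of all peak scores of its own list. The score was taken to be the peak caller's measure of confidence, which grows with depth. Lists were therefore compared by rank, apart from an alternative setting that kept peaks with a score of 100 or more. A region had the percentile of its strongest peak. A region was called lost or gained when only the first or only the second list of a pair held a peak there, and higher or lower when both held one and the percentile moved by 10 points or more. A second ranking, among the 26439 regions that all 4 lists held, is given for some of the regions where it changes a call or a direction. A region without it may also change. With 1 pooled list per group there was no replicate check, no p-value was computed, and 95% Wilson intervals cover counting error only. Regions near 1 gene are not independent of each other. The lists carried the markers of macrophages: 8 of 8 macrophage marker genes had a Veh peak within 1 kb of their TSS, 6 a T0 peak, 8 an LPS peak and 7 a T0-LPS peak. Csf1r had none in either T0 list and Mrc1 none in T0. None of 4 T cell markers had one in any list, 1 of 3 B cell markers (Cd79a and Pax5 lacked it), 1 of 4 neutrophil markers (Ly6g, S100a9 and Mpo lacked it) and 2 of 3 dendritic cell markers (Xcr1 lacked it) had one in each list.

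The sequences that carry the main result are the DR4 matches below. They were sought in the whole of each region, on both strands, with up to 2 mismatches over the 12 half-site positions. Of the 83 regions, 10 held a match, and these lay at 5 of the 7 genes: 6 at Abcg1 and 1 each at Abca1, Pltp, Lpl and Mylip. Apoe and Smpdl3a had none. Given below are 8 of the 10, 5′ to 3′ on their own strand in GRCm38 with 7 flanking bases on each side. Those at Abcg1 (-52499 and -19080 bp) are not printed. A Veh peak held each of them in full and no T0 peak did. The half-sites are in capitals, and the region is named by the distance of its midpoint from the TSS.
Abca1 region at -58131 bp, chr4:53218197-53218226, minus strand: cctagcgGGGTAActccAGGTCAgacttgg
Abcg1 region at 17960 bp, chr17:31075698-31075727, plus strand: ctgagagAGGTTAatgtAGGTCAtcttggg
Abcg1 region at 1165 bp, chr17:31058874-31058903, minus strand: aggcaagAGGTAActgtCGGTCAaatcctg
Abcg1 region at 9592 bp, chr17:31067176-31067205, minus strand: cctacagAGGTTActacAGGGCAaacagcc
Abcg1 region at -17840 bp, chr17:31039737-31039766, minus strand: agggctgAGGTTActtcAGGGCAgttctga
Pltp region at -9491 bp, chr2:164866992-164867021, minus strand: gagttcaAGGTTAgtctGGGTCAaatgaga
Lpl region at 73664 bp, chr8:68954242-68954271, plus strand: gcctgtgAGGTTActtcAGGTCActgtggg
Mylip region at -78039 bp, chr13:45311727-45311756, plus strand: atgattcAAGTCAttctGGGTCAcccttcc
The first half-site read AGGTTA in 5 of the 10 matches and AGGTCA in none, and the second read AGGTCA in 3, AGGGCA in 2 and GGGTCA in 2. The matches at Abcg1 (17960 bp) and Lpl (73664 bp) had 1 mismatch, and the others 2. In the central 200 bases alone, a match was present in 6 of 83 regions (7.23%, interval 3.36 to 14.9%), 5 of them at Abcg1, against 726 of 37618 regions genome-wide (1.93%). The half-site alone, without mismatch, was in the central 200 bases of 11 of 83 regions (13.3%, interval 7.56 to 22.2%) and of 11.9% of all regions. The share with DR4 rested on Abcg1: without the 8 regions of that gene, 1 of 75 had a match (1.33%, interval 0.236 to 7.17%), and the genome-wide share lay inside the interval. The share with a single half-site did not differ from the genome-wide one beyond counting error.

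At 3 of the 10 matches, the base pairs of the match lay in a peak of both lists with T0 and of neither list without it. These were at Abca1 (-58131 bp), Abcg1 (17960 bp) and Pltp (-9491 bp). Over the whole genome, 1891 DR4 matches fell in merged regions and 5 of them (0.264%) were held by T0 and T0-LPS peaks only, so that 3 of the 5 were near these genes. The other 2 had Ttc7b and Rmnd5a as nearest protein-coding gene start. The converse pattern, Veh and LPS peaks only, applied to 57 of the 1891 matches (3.01%) and to none of the 10. Of the 10, the match at Abcg1 (-52499 bp) was held by a Veh peak only, as were 204 of the 1891 (10.8%). Another at Abcg1 (-19080 bp) was held in full by Veh and T0-LPS peaks only, as were 29 (1.53%). The T0 and LPS peaks there began inside the match. Of all bases in merged regions, 0.162% were held by T0 and T0-LPS peaks only. The 3 matches were singled out after their values had been seen. The 300 bases around each, on the strand of the match with the half-sites in capitals, are given here because they hold the DNA that both T0 lists covered and the other lists did not.
Abca1 region at -58131 bp, chr4:53218062-53218361, minus strand: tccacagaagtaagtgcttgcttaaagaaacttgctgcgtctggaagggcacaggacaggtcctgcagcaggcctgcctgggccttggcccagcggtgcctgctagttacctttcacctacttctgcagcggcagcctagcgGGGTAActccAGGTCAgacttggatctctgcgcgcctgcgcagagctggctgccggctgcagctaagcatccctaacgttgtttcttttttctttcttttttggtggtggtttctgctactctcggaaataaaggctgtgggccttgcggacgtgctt
Abcg1 region at 17960 bp, chr17:31075563-31075862, plus strand: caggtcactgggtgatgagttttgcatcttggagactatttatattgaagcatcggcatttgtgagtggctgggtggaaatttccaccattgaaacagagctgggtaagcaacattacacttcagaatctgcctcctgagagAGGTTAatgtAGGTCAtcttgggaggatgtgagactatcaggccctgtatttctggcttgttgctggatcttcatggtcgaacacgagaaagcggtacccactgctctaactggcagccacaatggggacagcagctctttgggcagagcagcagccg
Pltp region at -9491 bp, chr2:164866857-164867156, minus strand: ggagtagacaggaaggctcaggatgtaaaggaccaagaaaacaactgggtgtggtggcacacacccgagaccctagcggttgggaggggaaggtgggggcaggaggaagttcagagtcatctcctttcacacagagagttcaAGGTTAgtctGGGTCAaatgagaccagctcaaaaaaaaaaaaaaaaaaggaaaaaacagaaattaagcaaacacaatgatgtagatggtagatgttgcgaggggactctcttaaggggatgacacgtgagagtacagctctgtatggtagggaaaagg

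**Figure D1:**
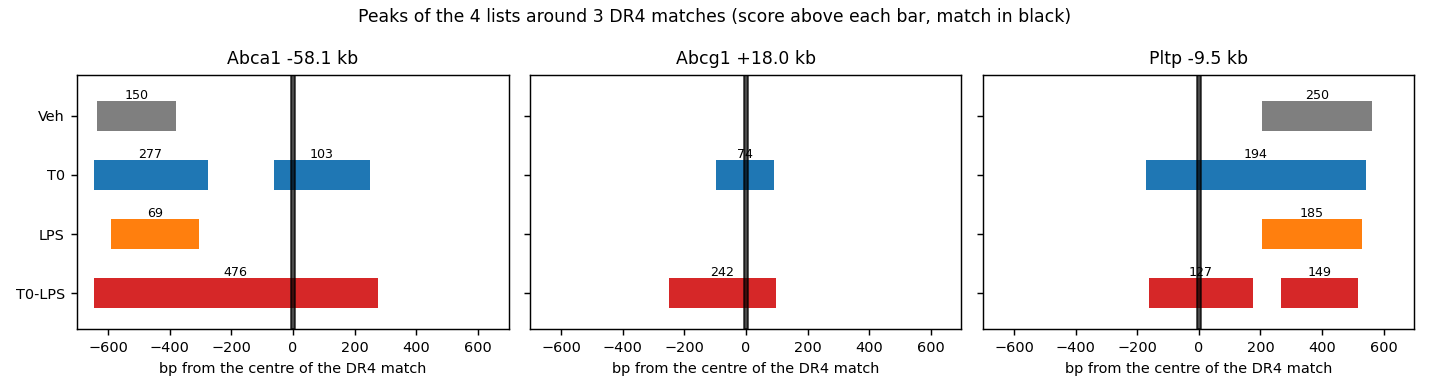
Peaks of each list (bars, with the score above) around the 3 DR4 matches held by T0 and T0-LPS peaks only; the x axis is the distance in bp from the centre of the match (black line), in the direction of the reference genome. At Abca1 and Pltp the Veh and LPS peaks lie to 1 side of the match, and at Abcg1 there is no Veh or LPS peak.

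At Abca1 the region at -58131 bp (chr4:53217564-53218487, intergenic) was weakly open in Veh, where its peak scored 150 and ranked at percentile 15.8. The strongest T0 peak scored 277 (percentile 45.7), the LPS peak 69 (1.28) and the T0-LPS peak 476 (72.3). The region was thus higher with T0 in both settings, by 29.8 points without LPS and by 71.1 points with LPS. Only 3 of the 28857 regions with a Veh and a T0 peak (0.0104%) rose as far without LPS, this one included. Among the 29377 regions with an LPS and a T0-LPS peak it had the largest rise. Its open DNA also became wider. The Veh peak covered 257 bp and the LPS peak 284 bp, both at lower coordinates than the DR4 match. The T0 list held 2 peaks there, of 370 bp and, over the match, of 312 bp with a score of 103 at percentile 7.04. The T0-LPS list held 1 peak of 924 bp across both. Peak names carry running numbers, and a number missing between neighbours was read as a called peak that the enhancer filter took out. Whether another step removed some of them was not tested. No number was missing around this match in the Veh or LPS list.

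At Abcg1 the intronic region at 17960 bp (chr17:31075461-31075809) was absent from the Veh and LPS lists. It had a T0 peak of 187 bp with a score of 74 at percentile 1.64, and a T0-LPS peak of 349 bp with a score of 242 at percentile 41.8. It was the single region of the 83 held by T0 and T0-LPS only, a pattern found in 18 of the 37648 regions (0.0478%). Peak numbers were missing between the flanking peaks in Veh (2 numbers) and LPS (1 number). These flanking peaks lay at 9592 and 219645 bp, so a peak removed by the enhancer filter could have lain here or anywhere else between them. At Pltp the intergenic region at -9491 bp (chr2:164866836-164867568) had a peak in every list. Its percentiles in Veh, T0, LPS and T0-LPS were 33.3, 29.8, 26.9 and 21.4. The rank moved by less than 10 points with T0, and its direction without LPS depended on the ranking. Among the regions held by all lists it went from 14.4 in Veh to 23.0 in T0 and from 14.2 in LPS to 13.3 in T0-LPS. Its peaks reached farther with T0. The Veh and LPS peaks, of 358 and 324 bp, did not reach the match. The T0 peak of 713 bp ran over it, and T0-LPS had a peak of 337 bp on the match (score 127, percentile 15.7) beside another of 250 bp. No peak number was missing at the match in Veh or LPS.

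**Figure D2:**
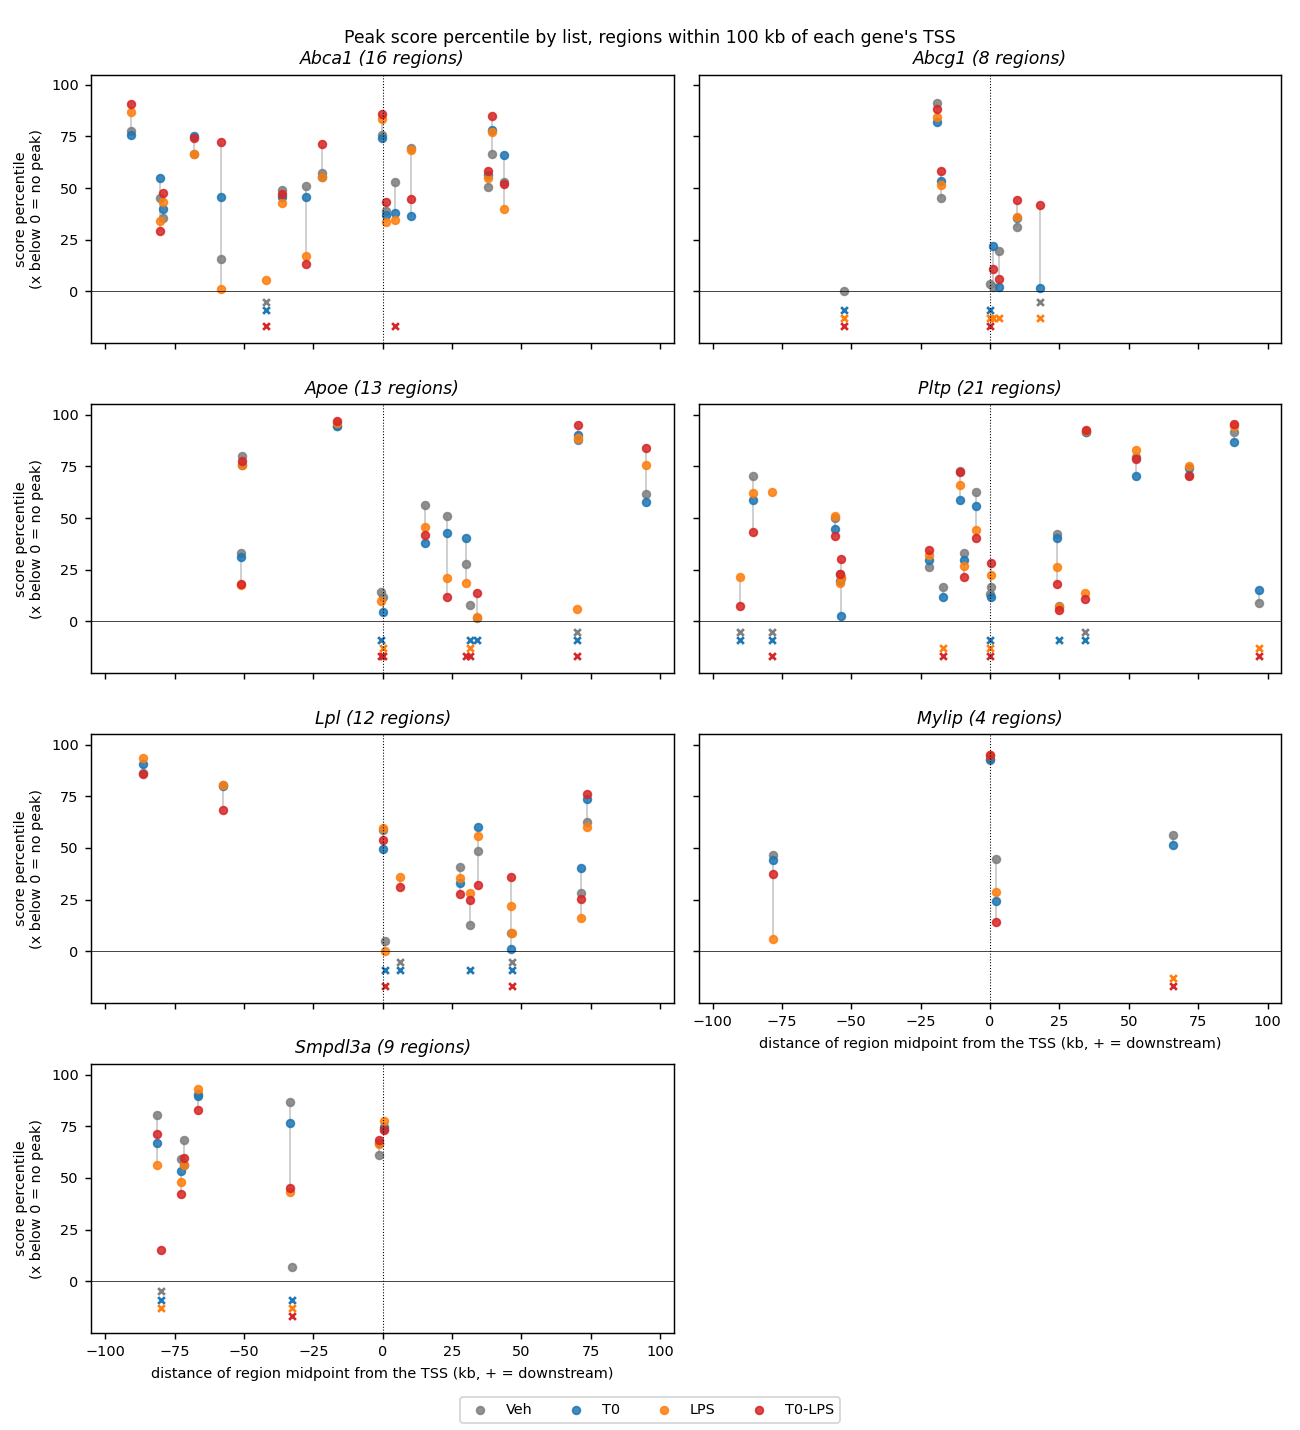
Score percentile (y axis) of each region in the 4 lists against the distance of its midpoint from the TSS in kb (x axis), 1 panel per gene; grey lines join the lowest and highest list of a region and crosses below 0 mark lists with no peak. The Abca1 region at -58131 bp spans percentiles 1.28 to 72.3, while the Mylip promoter stays between 92.6 and 94.95.

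The Abca1 promoter region (-141 bp, chr4:53159732-53160340) was open in every list, scoring 648 (percentile 75.6) in Veh and 510 (74.1) in T0, and 674 (83.4) in LPS against 653 (85.7) in T0-LPS, so T0 moved it by less than 10 points. It held no DR4 match with up to 2 mismatches and 1 match with 3, of which the nearest base lay 52 bp from the TSS. That match is shown because it lies at the promoter of the best known LXR target.
Abca1 region at -141 bp, chr4:53159940-53159969, plus strand: agcgccgGGGTTActacCGGTCAaacgctg
Matches with up to 3 mismatches were common: 15.2% of all regions had one in the central 200 bases. A count of mismatches to AGGTCA does not show whether LXR binds a match, and binding was not tested. The RefSeq promoter table for GRCm38 (250 bases before to 50 after each start) held entries for 4 of the 7 genes, Pltp, Abca1, Apoe and Mylip. None of their promoters had a match with up to 2 mismatches or an exact half-site, against 3.02% and 16.3% of the 32851 promoters in the table.

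Within the Abca1 gene, T0 moved intronic regions in both directions. The region at 10048 bp (chr4:53149657-53150037) fell from percentile 69.5 in Veh to 36.7 in T0 and from 68.5 in LPS to 44.8 in T0-LPS. It was the largest fall of the 83 regions without LPS, and 1.11% of all regions fell as far. The region at 43827 bp rose from 53.0 to 65.8 without LPS and from 40.05 to 51.8 with it. The region at 39320 bp was at 66.7, 78.2, 77.0 and 84.9 in Veh, T0, LPS and T0-LPS, so it passed the 10 points without LPS alone. Among the regions held by all lists it rose by 19.7 points without LPS and by 10.9 with it. The intronic region at 4288 bp had percentiles of 53.0, 37.7 and 34.7 in Veh, T0 and LPS and no T0-LPS peak, but a peak number was missing there in T0-LPS. The region at -41885 bp had a peak in LPS alone, at percentile 5.72. Of the 16 Abca1 regions 14 had a peak in all 4 lists, and for all 16 Abca1 was the nearest protein-coding gene start.

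Abcg1 had 8 regions against 16 at Abca1. The peak at the TSS (-9 bp, chr17:31057578-31057754) was found in Veh alone, where it scored 90 (percentile 3.38), and had no missing number in the other lists. The intronic region at 1165 bp, which holds a DR4 match, had a score of 80 (percentile 2.22) in Veh and 159 (21.8) in T0, no peak in LPS, and 110 (10.8) in T0-LPS. The rise of 19.6 points without LPS was reached by 0.0970% of all regions. The region at 3193 bp, with no DR4 match, went the other way without LPS, from percentile 19.7 in Veh to 2.32 in T0, and was absent from LPS and at 5.86 in T0-LPS. The DR4 regions of the gene with a peak in all 4 lists were steadier. The region at 9592 bp was at 31.2, 35.5, 36.0 and 44.4 in Veh, T0, LPS and T0-LPS, that at -17840 bp at 45.3, 53.4, 51.7 and 58.5, and that at -19080 bp at 91.0, 81.8, 84.5 and 88.3. Ranked among the regions held by all lists, the first rose with T0 by 16.4 points without LPS and the second by 19.97 points, and both also passed the 10 points with LPS. A weak region at -52499 bp, in an intron of Umodl1, also holds a DR4 match and was in Veh alone (score 53, percentile 0.247). Only 3 of the 8 Abcg1 regions had an LPS peak, whereas Veh had 7 and T0 and T0-LPS 6 each.

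**Figure D3:**
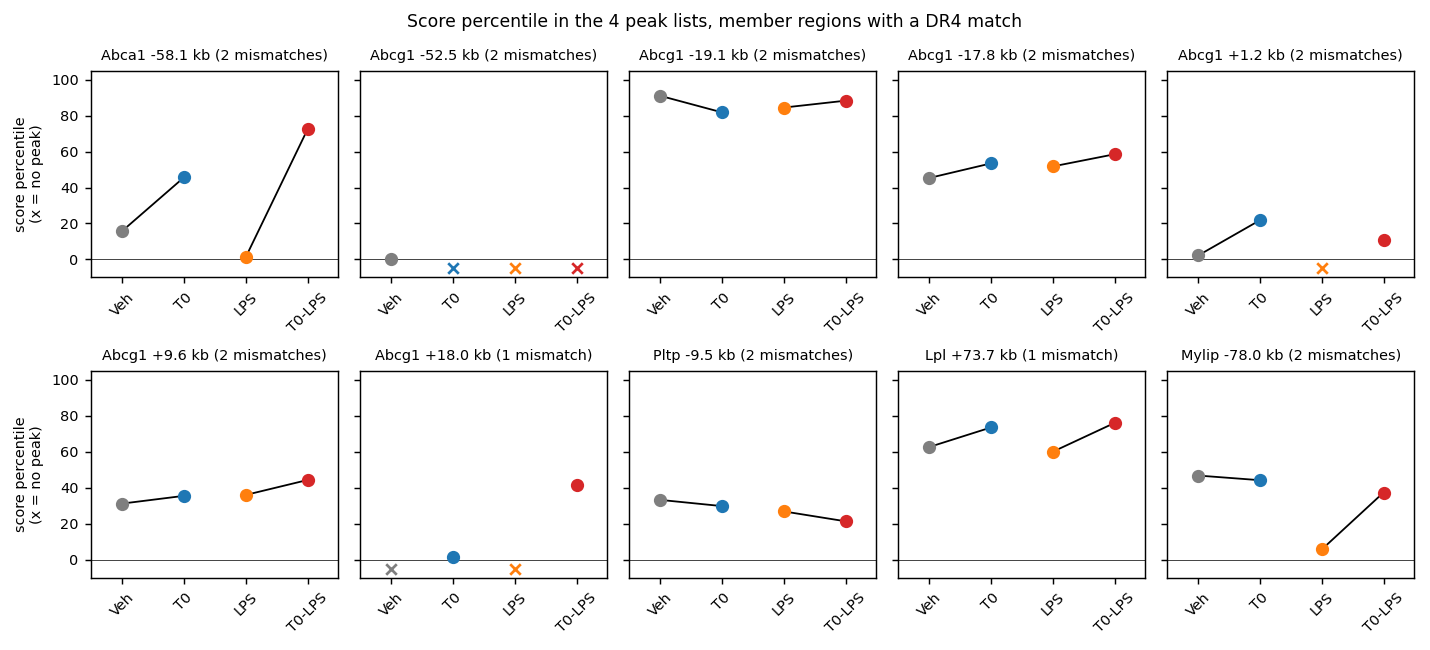
Score percentile (y axis) in the 4 peak lists (x axis) for the 10 regions with a DR4 match; lines join Veh with T0 and LPS with T0-LPS, and crosses mark lists with no peak. The rise with T0 is steepest at Abca1 (-58131 bp), from 1.28 to 72.3 in the presence of LPS.

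Apoe, the secreted lipoprotein component, had only weak peaks at its own promoter. Its TSS region (81 bp, chr7:19698951-19699263) had weak peaks in Veh (score 133, percentile 11.95) and T0 (92, 4.64) and none in LPS or T0-LPS. The neighbouring region at -620 bp was present in Veh (142, 14.2) and LPS (112, 9.74) and absent from both lists with T0. No peak number was missing at either region in the lists without a peak. The window around Apoe is dense in genes, and for only 2 of its 13 regions was Apoe the nearest protein-coding gene start. Farther away, the region at 31551 bp was in Veh alone (percentile 8.07), and that at 34079 bp, at the Clptm1 promoter, was missing from T0 alone (1.61 in Veh, 2.10 in LPS, 13.5 in T0-LPS). The region at 30101 bp rose from 27.5 in Veh to 40.1 in T0, and was at 18.6 in LPS and absent from T0-LPS. The region at 15259 bp, between Apoe and Apoc4, fell from 56.2 in Veh to 37.7 in T0 and was at 45.6 in LPS and 41.9 in T0-LPS. The intronic region of Apoc2 at 23170 bp was at 51.2, 42.8, 21.0 and 11.7 in the 4 lists. The region at 69841 bp, near the Relb promoter, had a peak in LPS alone (percentile 5.72).

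Among the genes of lipoprotein remodelling, Pltp had 2 weak regions at its start. The one at 25 bp (chr2:164857565-164857806) was in Veh alone (score 137, percentile 13.2), and that at 355 bp ranked at percentile 16.7 in Veh, 11.8 in T0, 22.4 (LPS) and 28.2 (T0-LPS). Of the 21 Pltp regions, 4 had Pltp as nearest protein-coding gene start. The region at 97084 bp had its peak in Veh (9.01) and T0 (15.1) alone, and the Ctsa promoter region at 24816 bp was missing from T0 alone (7.53 in Veh, 6.79 in LPS, 5.36 in T0-LPS). The Zfp335 promoter region at -53693 bp fell from 21.2 in Veh to 2.66 in T0 and was at 21.6 in LPS and 30.1 in T0-LPS. The fall ended as a call among the regions held by all lists, where the change was -3.80 points without LPS, and 11.7 points with it. In an intron of Mmp9, a gelatinase gene, the region at -85311 bp fell with T0 both without LPS, from 70.5 to 58.6, and with it, from 62.3 to 43.3. Among the regions held by all lists these changes were -6.98 and -18.4 points, so the call without LPS was lost. The region at -78435 bp was in LPS alone at percentile 62.7. Peak numbers were missing between the flanking peaks in the other 3 lists, at positions not known. It therefore cannot be told whether these lists lacked a peak at the region or the enhancer filter removed one.

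At Lpl, 3 regions downstream of the gene were higher with T0 than with Veh. The region at 73664 bp (chr8:68953893-68954417, intergenic), which holds the DR4 match with 1 mismatch, scored 491 in Veh, 505 in T0, 400 (LPS) and 517 (T0-LPS). Its percentile rose from 62.7 to 73.6 without LPS and from 60.1 to 76.1 with it, moves that 1.56% and 2.26% of all regions reached. The region at 71478 bp rose from 28.4 to 40.1 without LPS and stood at 16.3 and 25.2 with it. The region at 34256 bp rose from 48.7 to 60.3 without LPS and fell from 55.8 to 32.0 with it. At the promoter (93 bp, chr8:68880335-68880832) the percentiles were 58.7, 49.6, 59.6 and 54.0 in Veh, T0, LPS and T0-LPS, a move of under 10 points with T0 in either setting. The intronic region at 1008 bp was weak in Veh (score 98, percentile 4.80) and LPS (47, 0.104) and absent from both T0 lists. The region at 31331 bp was missing from T0 alone (12.6 in Veh, 28.1 in LPS, 24.6 in T0-LPS), and that at 46679 bp was in LPS alone (8.82). An intronic region at 6388 bp was present with LPS alone, at 36.0 in LPS and 31.0 in T0-LPS.

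Mylip had 4 regions, and its promoter (-102 bp, chr13:45389385-45389894) was the strongest of the 7 promoters in every list, at percentiles of 92.6 (Veh), 92.9 (T0), 94.95 (LPS) and 94.8 (T0-LPS). The region at -78039 bp (chr13:45311557-45311848), in an intron of the annotated gene Gm47448, holds a DR4 match. It was at 46.8 in Veh and 44.2 in T0, at 5.72 in LPS and at 37.4 in T0-LPS. With LPS alone it thus fell by 41.1 points, a fall that 0.542% of all regions matched. From LPS to T0-LPS it rose by 31.7 points, which 0.0579% matched. The Mylip intronic region at 1979 bp fell with T0 from 44.7 to 24.3 without LPS and from 28.7 to 13.9 with it. Both calls were lost among the regions held by all lists, where the changes were -9.55 and -8.40 points. The region at 66076 bp, nearest to Gmpr, was at 56.2 in Veh and 51.6 in T0 and absent from both lists with LPS, with no peak number missing.

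Smpdl3a had 9 regions, 2 of which had it as nearest protein-coding gene start. Its promoter (490 bp, chr10:57794490-57795159) was at 73.5, 74.7, 77.7 and 73.1, and the region at -1188 bp at 61.2, 66.9, 66.7 and 68.4. In introns of Pkib, the region at -81482 bp fell from 80.5 to 67.0 with T0 and rose from 56.5 to 71.4 with T0 in the presence of LPS, that at -79878 bp was in T0-LPS alone (15.2, with a number missing in LPS), and that at -66488 bp was at 90.7, 89.6, 92.9 and 83.0. The intergenic region at -32812 bp was in Veh alone (7.01). At -33378 bp, the percentile was 86.7 in Veh and 76.4 in T0, and 43.2 in LPS and 45.2 in T0-LPS.

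Counted together, 74 of the 83 regions had a Veh peak, 65 a T0 peak, 70 an LPS peak and 66 a T0-LPS peak, and 56 (67.5%) had one in all 4 lists, against 70.2% of all regions. They comprised 27 promoters (9 of the member genes and 18 of other genes), 27 introns and 29 intergenic regions. The comparison of T0 with Veh addressed LXR activation in resting cells. It found 10 of 74 regions lost (13.5%, interval 7.51 to 23.1%) against 18.1% of all regions, and 1 of 65 gained (1.54%, interval 0.272 to 8.21%) against 0.729%. All 10 lost regions were weak, at Veh percentiles from 0.247 to 14.2, and none had a missing peak number in T0. Among regions with a peak in both lists, 8 of 64 were higher with T0 (12.5%, interval 6.47 to 22.8%) against 2.01% of all regions. They were 3 at Abca1, 3 at Lpl, and 1 each at Abcg1 and Apoe. Lower with T0 were 11 of 64 (17.2%, interval 9.88 to 28.2%) against 34.1%. With this ranking the share higher was above, and the share lower below, the genome-wide share by more than counting error.

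**Figure D4:**
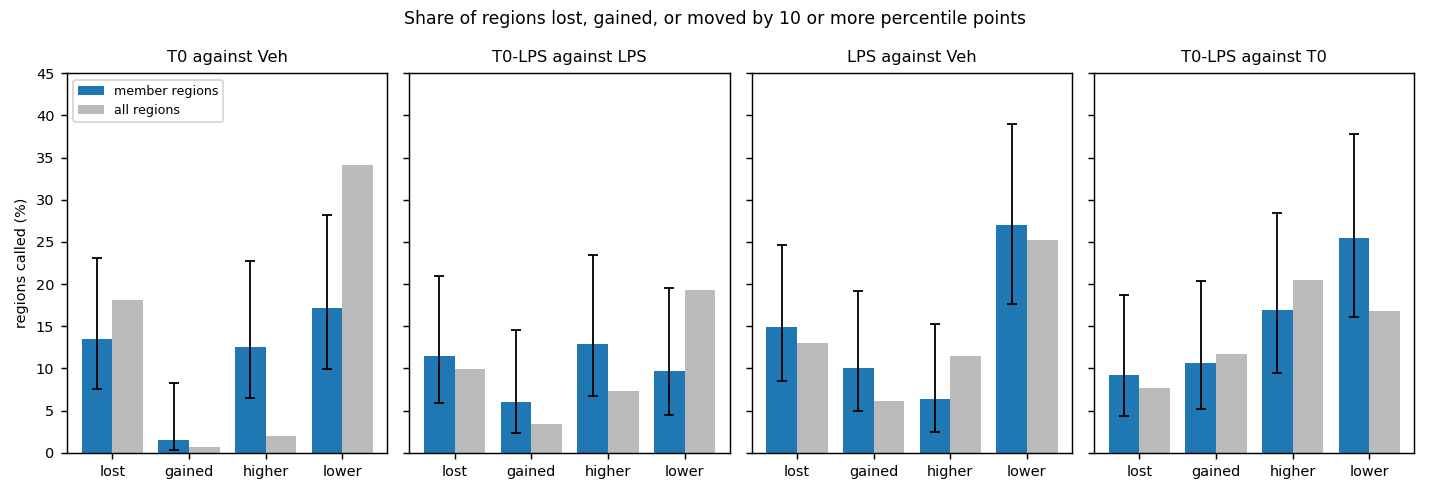
Share of regions (y axis, %) lost, gained, higher or lower by 10 or more percentile points in each comparison; blue bars are the regions of the 7 genes with 95% Wilson intervals and grey bars all regions. For T0 against Veh the share higher is 12.5% against 2.01%.

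In LPS-treated cells, T0-LPS against LPS gave 8 of 70 regions lost (11.4%, interval 5.91 to 21.0%) against 9.97% of all, and 4 of 66 gained (6.06%, interval 2.38 to 14.6%) against 3.37%. Higher were 8 of 62 (12.9%, interval 6.69 to 23.4%) against 7.36%, and lower 6 of 62 (9.68%, interval 4.51 to 19.5%) against 19.3%. None of these shares cleared its background by more than counting error. Each gene was also left out in turn, a step added after the data were seen. The share higher then cleared its background only without the regions of Pltp (17.8%, interval 9.29 to 31.3%). The share lower stood below its background only without those of Lpl (7.69%, interval 3.03 to 18.2%) or Mylip (8.47%, interval 3.67 to 18.4%). In every other case the interval held the background. Of the 4 gained regions 3 were at Abcg1. The 8 higher ones were 3 at Abca1, 2 at Lpl, and 1 each at Apoe, Mylip and Smpdl3a.

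These calls depend on the ranking, because a list that lost its weak peaks gives lower percentiles to those that remain. When percentiles were taken among the 26439 regions held by all lists, 16 of 56 regions were higher with T0 (28.6%, interval 18.4 to 41.5%) against 12.8% of all, and 4 of 56 lower (7.14%, interval 2.81 to 16.98%) against 12.9%. With LPS present, 15 of 56 were higher with T0 (26.8%, interval 16.96 to 39.6%) against 13.0% of all, and 5 of 56 lower (8.93%) against 13.0%. Without LPS the share of higher regions was above background with either ranking, and with LPS it was above background by more than counting error in the ranking among shared regions alone. The share lower without LPS was below background in the whole-list ranking alone. Among shared regions its interval held the background. Among shared regions both results rested on Abca1. Without its regions 8 of 42 were higher with T0 (19.0%, interval 9.98 to 33.3%) and, with LPS, 9 of 42 (21.4%, interval 11.7 to 35.9%), intervals that hold the background. In the whole-list ranking without LPS, the share higher stayed above and the share lower below background with the regions of any 1 gene left out. The split of higher against lower calls turned from 8 and 11 to 16 and 4 without LPS. The comparisons of T0 with Veh and of T0-LPS with LPS share no list, and their calls were read side by side. Under the whole-list ranking 3 of 56 regions were higher with T0 in both (5.36%), against 66 of 26439 (0.250%): Abca1 at -58131 and 43827 bp and Lpl at 73664 bp. Under the ranking among shared regions 9 of 56 were (16.1%) against 660 of 26439 (2.50%). Those 9 comprised 5 at Abca1 and 2 each at Abcg1 and Lpl. Lower in both under the whole-list ranking were 3 of 56 (5.36%) against 8.67% of all.

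**Figure D5:**
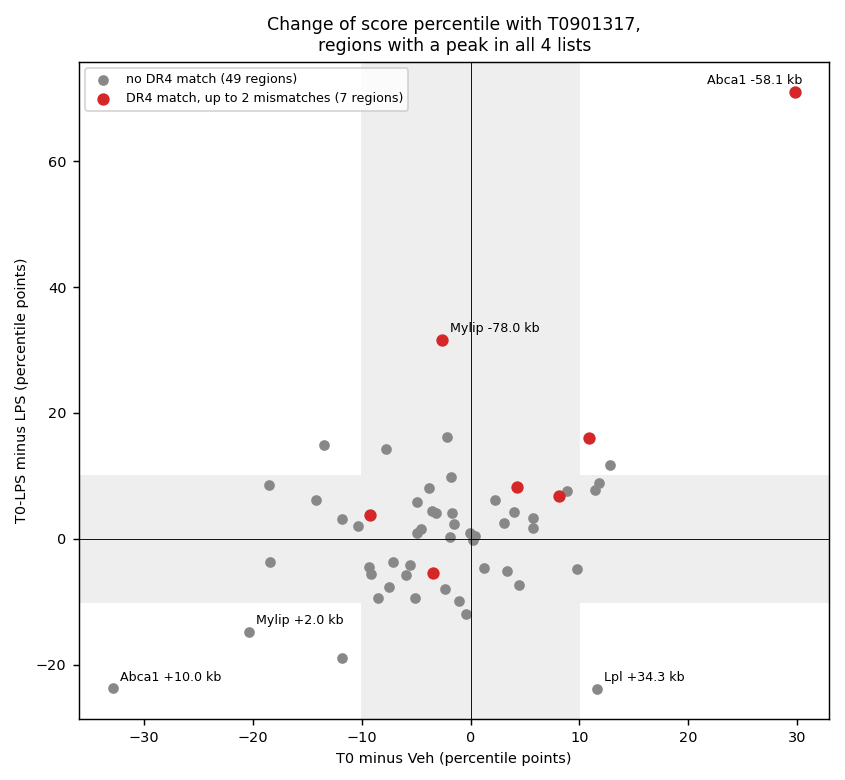
Change of score percentile with T0 without LPS (x axis, percentile points) against the change with LPS present (y axis) for the 56 regions with a peak in all 4 lists; red points hold a DR4 match, grey points do not, and shading marks moves under 10 points. The Abca1 region at -58131 bp stands at 29.8 and 71.1 points, apart from the rest.

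The 10 regions with a DR4 match were set beside the other 73, as a description of few regions. Matches were sought in whole merged regions, so T0 peaks helped to set which regions held one. No Veh or LPS peak held the match at Abca1 (-58131 bp), Abcg1 (17960 bp) or Pltp (-9491 bp). The Abca1 region is among the higher ones in both settings, so the contrast below is not independent of T0. Without LPS, 3 of the 8 with both peaks were higher and none lower, with a median change of 6.21 points, against 5 higher and 11 lower of 56 and a median of -3.34 points for the rest. With LPS, 3 of 7 were higher and none lower (median 8.31 points), against 5 higher and 6 lower of 55 (median 0.415 points). Of the 10, T0 without LPS lost 1 region and gained 1, against 9 lost and 0 gained of the 73. With LPS, 0 were lost and 2 gained, against 8 lost and 2 gained. The 10 and the 73 include regions with no peak in the lists compared. Of all regions with a Veh peak 18.1% were lost with T0, and of those with a T0 peak 0.729% were gained. With LPS these shares were 9.97% and 3.37%. The region gained without LPS, Abcg1 at 17960 bp, had peaks in the T0 and T0-LPS lists only. Counting only matches in the central 200 bases, 1 of 4 regions was higher without LPS and 1 of 3 with it, and none was lower. Genome-wide shares were counted for such central matches. Of the 548 regions with a match in the central 200 bases and both peaks, 3.10% were higher with T0, against 1.99% of 28288 regions without one, and 34.3% against 34.1% were lower. With LPS, 9.32% of 547 regions with a match were higher, against 7.32% of 28808 without, and 20.3% against 19.3% were lower.

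LPS alone moved the 83 regions about as often as it moved regions elsewhere. Relative to Veh, 11 of 74 were lost (14.9%, interval 8.51 to 24.7%) against 13.0% of all, and 7 of 70 gained (10.0%, interval 4.93 to 19.2%) against 6.14%. Higher were 4 of 63 (6.35%, interval 2.50 to 15.2%) against 11.4%, and lower 17 of 63 (26.98%, interval 17.6 to 39.0%) against 25.2%. Of the 11 lost regions 4 were at Abcg1. Ranked among shared regions, 11 of 56 were higher (19.6%) against 18.1% and 10 lower (17.9%) against 19.0%. T0-LPS against T0 showed 6 of 65 lost (9.23%, interval 4.30 to 18.7%) against 7.70%, 7 of 66 gained (10.6%, interval 5.23 to 20.3%) against 11.7%, 10 of 59 higher (16.9%, interval 9.48 to 28.5%) against 20.5% and 15 of 59 lower (25.4%, interval 16.1 to 37.8%) against 16.8%. With ranks among shared regions 9 of 56 were higher (16.1%) against 18.5% and 14 of 56 lower against 19.7%. None of these differences went beyond counting error.

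Of 62 regions with 1 Veh and 1 T0 peak, 42 (67.7%) were narrower with T0, against 87.6% of 27928 regions in all, and the median change was -5.57% against -11.3%. In the presence of LPS, 28 of 61 (45.9%) were narrower with T0 against 63.9% of all, with median changes of 0.957% and -3.62%. Between Veh and LPS, 61.9% of 63 regions were narrower with LPS against 67.8% of all.

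Other genes of the pathway were counted in the same way with T0 against Veh. Around 9 other LXR targets (Srebf1, Scd1, Scd2, Fasn, Acaca, Lpcat3, Mertk, Tgm2 and Cd5l, mostly lipogenic or phagocytic genes), 5 of 54 regions were higher with T0 (9.26%) and 18 lower (33.3%), and with LPS 10 of 52 were higher (19.2%) and 7 lower (13.5%). The shares over all regions, for these lists as for the efflux genes, were 2.01% higher and 34.1% lower without LPS, and 7.36% and 19.3% with it. A share of higher regions above that of all regions was thus seen at the other targets as well, and also in each list that follows. No intervals were computed for these lists. Around the receptors LXRα and LXRβ (Nr1h3, Nr1h2), their partners Rxra and Rxrb and the corepressor Ncor1, 2 of 34 were higher (5.88%) and 10 lower (29.4%), and with LPS 6 of 38 were higher and 6 lower (15.8% each). Around 8 genes of cholesterol handling (Scarb1, Npc1, Npc2, Lipa, Soat1, Nceh1, Cyp27a1 and Insig1), 5 of 71 were higher (7.04%) and 22 lower (30.99%), and with LPS 7 of 69 were higher (10.1%) and 16 lower (23.2%). The median change with T0 was -2.49 points for the 7 efflux genes, -5.65 for the other targets, -5.06 for the receptors and partners, -4.56 for cholesterol handling and -5.58 for all regions.

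The distance of 100 kb set which regions counted. The last region inside it was that of Pltp at 97084 bp, described above. The nearest outside were those of Smpdl3a at -103978 bp, at percentiles 86.8, 78.2, 77.3 and 67.1 in the 4 lists, and of Apoe at -104718 bp, in LPS alone at 18.4.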

How the data were processed

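ATAC-seq peaks were analysed as deposited in 4 lists, 1 for each group of 4 libraries. The authors trimmed reads with cutadapt, aligned them to mm10 with Bowtie2 and removed duplicates with SAMtools. Peaks were then called on the pooled libraries of a group (MACS2, q threshold of 0.001). They retained peaks at macrophage enhancers marked by H3K27ac or H3K4me2. The score of each peak is as deposited by the authors. No header names its scale, so it was used as a rank alone. Depth per library is unknown.

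Peaks overlapping by 1 bp or more were merged, and regions assigned by midpoint to the GENCODE vM21 TSS of each gene (GRCm38, 1-based). Promoter means within 1 kb of a protein-coding TSS. Peak names carry running numbers, and a number missing between neighbours was read as a peak removed by the enhancer filter. DR4 matches were read from the RefSeq GRCm38 sequence with pysam 0.24.0 and Python 3.11.15, tested on simulated data. Some genes of the set and of the lists are not reported here and entered no count of them. Regions named are those nearest the TSS, lost or gained with T0, with the largest rise or fall with T0, and with the fewest DR4 mismatches, plus others chosen after their values were seen. The genes, lists and rules were chosen with earlier results of these data known.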

Additional observations from a re-analysis of the deposited data

Results flagged for a closer look

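In 2 of the 56 regions with a peak in all lists (3.57%), T0 moved the percentile by 10 points or more in opposite directions without and with LPS. The same held for 882 of 26439 regions in all (3.34%). At Lpl, 34256 bp downstream of the TSS, the change with T0 in the presence of LPS was -23.8 points and without LPS 11.6 points, a difference of -35.4 points. At Smpdl3a, -81482 bp from the TSS, the change was 14.96 points with LPS and -13.47 points without, a difference of 28.43 points. Each group was 1 pooled list, so these differences were not tested. The agonist had also been present for 2 h longer in T0-LPS than in T0.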

How the results depend on the processing

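No paired analysis was possible because the libraries of a group were pooled into 1 list before deposit, and for the same reason no library could be left out. Of 221 shares recomputed under other settings, 201 stayed within the 95% interval of the reported value. This count says little by itself. Leaving out 1 gene reused most of the same regions, and taking any annotated transcript start gave identical shares. With single peaks and a reciprocal overlap of 50%, the share gained with T0 against Veh was 10.4% (6.82% of all peaks) and the share lost in T0-LPS against T0 was 19.4% (11.9% of all peaks). Ranked among regions in all lists, the share higher was 28.6% for T0 against Veh, 26.8% for T0-LPS against LPS and 19.6% for LPS against Veh, and the share lower for T0 against Veh was 7.14%. With a move of 20 points, which passes fewer regions by construction, the shares higher and lower were 1.56% and 3.12% for T0 against Veh (all regions 0.0762% and 10.4%), 3.23% and 3.23% for T0-LPS against LPS (0.929% and 4.36%), 0% and 7.94% for LPS against Veh (3.92% and 9.14%), and 8.47% and 10.2% for T0-LPS against T0 (7.76% and 5.62%). The share of regions with DR4 in the central 200 bases was 1.20% with up to 1 mismatch and, in an alternative added after seeing the data, 24.1% with up to 3. Leaving out each gene in turn was added likewise. Without the regions of Abcg1, the share with DR4 was 1.33%, the share gained 0% for T0 against Veh and 1.67% for T0-LPS against LPS. The share of DR4 matches held by T0 and T0-LPS peaks only was 10.6% (5 of 47) with up to 3 mismatches. With scores of 100 or more it was 3 of 9, but the Abcg1 match at 17960 bp, with a T0 score of 74, then dropped out and that at 1165 bp, with a Veh score of 80, came in. Of 40 percentile changes of named regions, 33 moved by less than 10 points when ranked among shared regions and 7 by more. None of the 18 called changes turned direction, 4 fell under 10 points (Mylip at 1979 bp without and with LPS, and Pltp at -53693 and -85311 bp without LPS) and 6 others came to 10 points or more. The sign differed between the rankings for 6 changes, none above 8.61 points in either. Depth per library is unknown, so a weak peak absent from a list was not detectable there rather than shown to be closed.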
